A study of Mus musculus with 8 samples.

Results

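The 8 genes Tns3, Nedd9, Cd2ap, Frmd4b, Epb4.1l2, Utrn, Svep1 and Ppp1r12a, which act in cell adhesion, the actin cytoskeleton and the membrane skeleton, gave rise to 18 of the 6315 circular RNAs (circRNAs) listed in injured and control mouse kidneys. Every listed circRNA that carried 1 of these names as its host gene was taken. The hosts were chosen by function and selected on their measured log2 fold changes of UUO and of AC against control, so the comparisons of UUO with control and of AC with control are given below as descriptions. Where a circRNA is said to pass the threshold in them, this places it in the fit of all circRNAs and is no independent test of it. In the obstructed kidneys 5 of these circRNAs stood higher than in the control kidneys past the threshold (2.86% of all fitted circRNAs did), those of Nedd9, Cd2ap, Epb4.1l2, Svep1 and 1 of the 2 from Tns3, while the circRNA of Frmd4b was almost gone (1.50% of all were lower). In the AC kidneys 3 of the same circRNAs stood higher (1.90% of all), those of Tns3, Nedd9 and Cd2ap. The fitted circRNAs of Utrn and Ppp1r12a passed the threshold, an adjusted p of 0.05, in neither group, and the others of these hosts had too few counts to be fitted.

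A circRNA is a closed loop made when the splicing machinery joins the end of an exon to the start of an earlier one, and its level need not follow that of the linear messenger RNA of the same gene. The 8 hosts encode proteins along the path by which a kidney cell grips its surroundings. Integrins bind the matrix outside the cell and gather adaptors such as tensins and Cas-family scaffolds at focal adhesions, spectrin and band 4.1 proteins or utrophin tie other membrane proteins to actin, and myosin phosphatase sets how hard the actomyosin fibres pull. In the kidney these links hold podocyte foot processes and tubular cells to their basement membranes.

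The samples were whole kidneys of C57BL/6L mice aged 8 to 10 weeks, from which total RNA was extracted with Trizol. The UUO group held 3 libraries of kidneys with unilateral ureteral obstruction, titled as day 5. The AC group held 2 libraries, labelled acute-chronic and also titled as day 5; the series design speaks of ischaemia/reperfusion (I/R) where the labels say AC, and the procedure behind the AC label is not described further. The control group held 3 libraries, which the titles call WT and the design text sham-operated. The sources used here give neither the sex nor whether each library came from its own animal, so the spread and every p-value refer to these libraries and may be technical.

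Libraries held between 40865 and 65145 circRNA counts, and the 18 circRNAs took 2.45%, 2.82% and 2.87% of the counts in the UUO libraries, 2.16% and 2.54% in the AC libraries, and 1.46%, 1.79% and 1.58% in the control libraries. Levels are CPM, counts scaled to each library's sum over the 1471 fitted circRNAs after TMM adjustment, in the usual CPM unit, so 3 counts were worth between 56.6 and 87.5 CPM. Of the 18 circRNAs, 10 had enough counts to be fitted, among 1471 of all 6315. The 8 others came from Cd2ap, Utrn and Ppp1r12a, held between 2 and 25 counts each over all libraries and made up 0.872% of the counts of the 18. Marker genes of kidney cell types could be checked only where they host a listed circRNA. This was 1 of 8 for the proximal tubule (Lrp2), 1 of 9 for the distal nephron (Klhl3), 1 of 7 for podocytes (Magi2), 2 of 8 for endothelium (Flt1 and Tek), 0 of 9 for fibroblasts and 0 of 9 for immune cells. Lrp2 stood at 273 to 685 CPM in UUO, 613 CPM in both AC libraries and 239 to 1736 CPM in control. The endothelial sum was 25.4 to 210.0 CPM in UUO, 0 to 263 CPM in AC and 94.4 to 133 CPM in control.

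**Figure D1:**
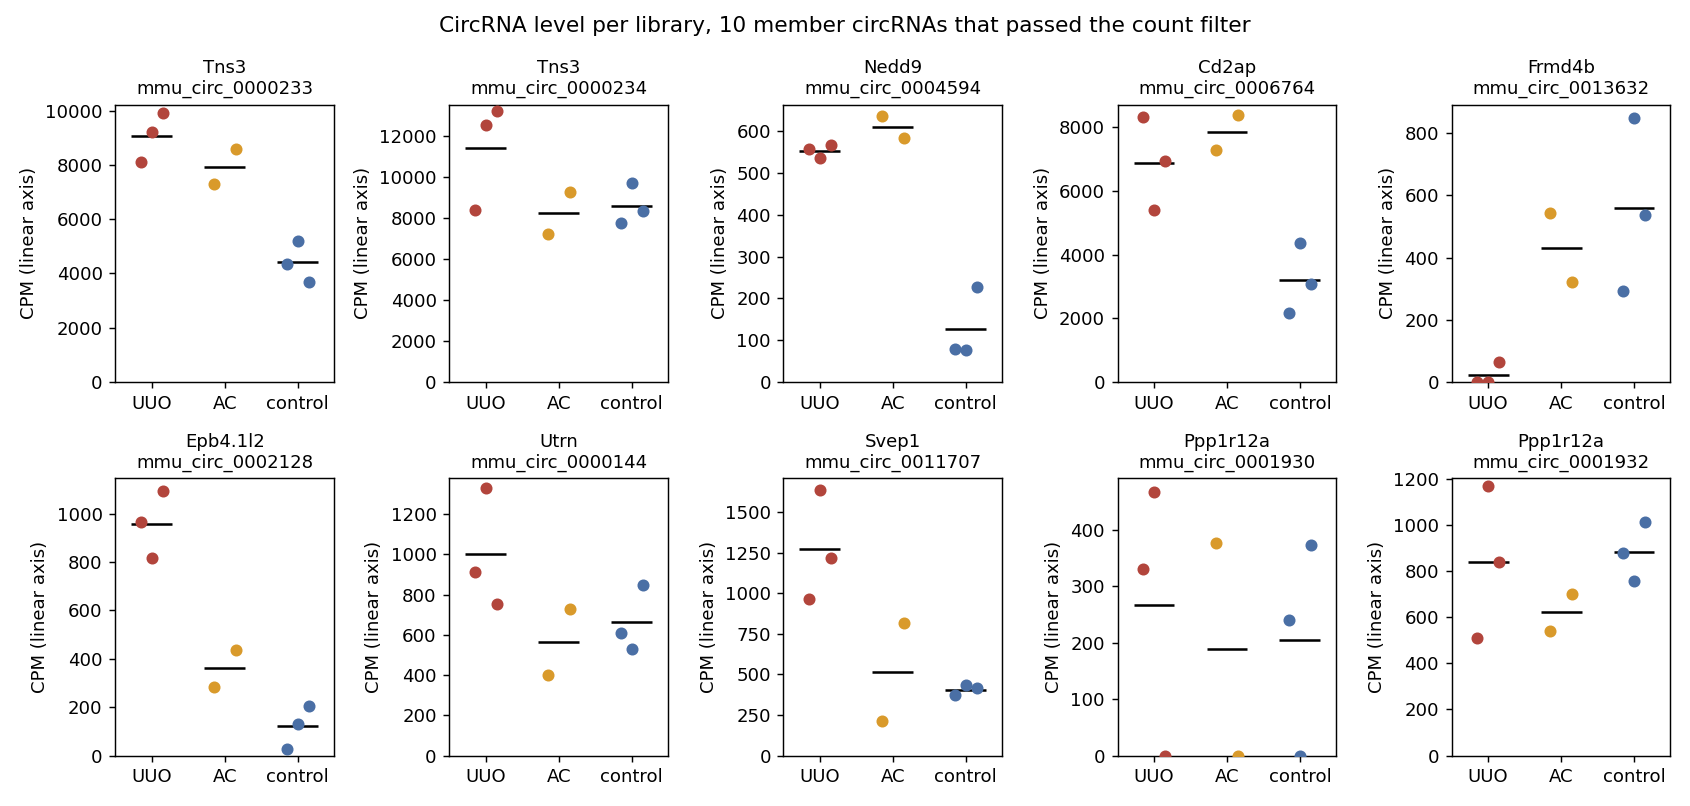
CPM of the 10 fitted circRNAs in each library, 1 panel per circRNA with its own linear axis from 0, and UUO, AC and control kidneys from left to right; points are libraries and black lines are group means. Epb4.1l2 and Svep1 lie highest in UUO, Nedd9 and Cd2ap lie high in both UUO and AC, and Frmd4b lies at or near 0 in UUO.

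Tns3 encodes tensin 3, an adaptor that links integrin tails at focal adhesions to actin. It was the most abundant host of the 8, with 2 circRNAs. The circRNA mmu_circ_0000233 had 319, 394 and 472 counts in the UUO libraries, 310 and 294 in the AC libraries, and 163, 275 and 179 in the control libraries. Its level averaged 9069 ± 915 CPM in UUO kidneys (SD, n = 3), 7940 ± 900 CPM in AC kidneys (SD, n = 2) and 4408 ± 747 CPM in control kidneys (SD, n = 3). All UUO and all AC libraries lay above all control libraries. The level was 2.06-fold higher in UUO than in control (log2 fold change 1.04, SE 0.18) and 1.80-fold higher in AC than in control (0.85, SE 0.19). In whole tissue, fewer cells of a type and less RNA per cell cannot be told apart, here and in every level below.

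The other circRNA of Tns3, mmu_circ_0000234, did not separate the groups. It had 330, 537 and 629 counts in the UUO libraries, 306 and 317 in the AC libraries, and 292, 513 and 403 in the control libraries. The means were 11374 ± 2619 CPM in UUO, 8228 ± 1441 CPM in AC and 8593 ± 985 CPM in control, and the ranges overlapped in each pair of groups. Its log2 fold change was 0.40 (SE 0.18) for UUO against control and -0.065 (SE 0.21) for AC against control. The share of Tns3 circRNA counts that belonged to mmu_circ_0000233 was 49.2%, 42.3% and 42.9% in the UUO libraries, 50.3% and 48.1% in the AC libraries, and 35.8%, 34.9% and 30.8% in the control libraries. The 95% Wilson intervals, which cover counting error only, reached down to 39.2% in UUO and 44.2% in AC, and up to 40.3% in control. Group means were 44.8 ± 3.80% in UUO, 49.2 ± 1.56% in AC and 33.8 ± 2.70% in control. Both circRNAs come from transcript NM_001083587, and the sources used here do not say how reads that fit more than 1 circRNA of a host were assigned. Summed over both, the Tns3 total was 1.51-fold higher in UUO (log2 0.59, SE 0.14) and 1.21-fold higher in AC (0.27, SE 0.15), and only the UUO total passed the threshold, which it lost without UUO replicates 2 or 3 or control replicate 3.

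**Figure D2:**
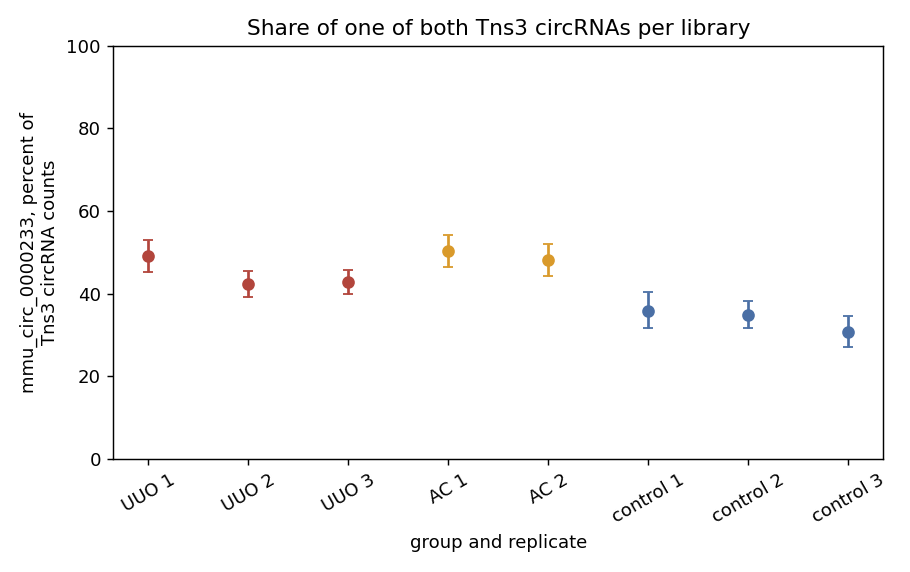
Share of the Tns3 circRNA counts that belong to mmu_circ_0000233, in percent, for each UUO, AC and control library; bars are 95% Wilson intervals of the counts. The shares lie between 42.3% and 50.3% in UUO and AC libraries and between 30.8% and 35.8% in control libraries.

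Nedd9 encodes a Cas-family scaffold that docks focal adhesion kinase and Src. Its only circRNA, mmu_circ_0004594, had 22, 23 and 27 counts in the UUO libraries, 27 and 20 in the AC libraries, and 3, 4 and 11 in the control libraries. Every UUO and AC library lay above every control library. The UUO libraries lay close together, but their SD was below the 21.0 to 25.4 CPM that 1 count was worth. Nothing is read from this closeness. The level averaged 554 ± 15.3 CPM in UUO, 609.7 ± 37.3 CPM in AC and 128 ± 86.5 CPM in control. It was 4.23-fold higher in UUO (log2 2.08, SE 0.51) and 4.66-fold higher in AC (2.22, SE 0.55). The size rested partly on control replicate 3, without which the log2 values were 2.76 for UUO and 2.88 for AC.

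Cd2ap encodes an adaptor that anchors the podocyte slit diaphragm to actin and also acts in endocytic traffic. Its main circRNA, mmu_circ_0006764, had 328, 231 and 330 counts in the UUO libraries, 309 and 288 in the AC libraries, and 81, 232 and 149 in the control libraries. Once scaled to library size, all UUO and AC levels were above all control levels. Means were 6882 ± 1465 CPM in UUO, 7840.3 ± 793 CPM in AC and 3204 ± 1118 CPM in control. This was 2.14-fold higher in UUO (log2 1.09, SE 0.24) and 2.43-fold higher in AC (1.28, SE 0.26). The second circRNA of Cd2ap, mmu_circ_0006763, held 0, 3 and 0 counts in UUO, 0 and 1 in AC and none in control, too few to compare. Magi2, the only podocyte marker that hosts a listed circRNA, had summed levels of 76.1 to 397 CPM in UUO, 259 to 379 CPM in AC and 165 to 425 CPM in control, and its part in the Cd2ap values was not tested.

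Epb4.1l2 encodes a band 4.1 protein (4.1G) that joins spectrin and actin to the cell membrane, and Frmd4b encodes a protein with a FERM domain, the membrane-binding fold shared with band 4.1, that binds cytohesin. Their circRNAs had the largest log2 fold changes of the 10 in UUO against control, in opposite directions. RefSeq windows upstream of an annotated start of each gene are shown because their circRNAs lay at these opposite ends. They are 250 bases of build GRCm38.p6, printed 5′ to 3′ on the gene's strand, with CG dinucleotides in capitals. For Frmd4b the most upstream of 3 windows was taken, which matched the start of the source transcript of its circRNA. The Epb4.1l2 window was not matched to the start of its circRNA's source transcript, so it may not be the promoter of that transcript. The Epb4.1l2 window is chr10:25408118-25408367 on the plus strand and the Frmd4b window is chr6:97617658-97617907 on the minus strand.
Epb4.1l2 (Epb41l2): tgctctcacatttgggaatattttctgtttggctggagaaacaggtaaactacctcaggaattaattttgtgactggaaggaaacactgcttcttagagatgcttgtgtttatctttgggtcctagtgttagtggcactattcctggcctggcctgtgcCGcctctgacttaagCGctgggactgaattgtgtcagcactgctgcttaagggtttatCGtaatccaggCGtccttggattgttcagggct
Frmd4b: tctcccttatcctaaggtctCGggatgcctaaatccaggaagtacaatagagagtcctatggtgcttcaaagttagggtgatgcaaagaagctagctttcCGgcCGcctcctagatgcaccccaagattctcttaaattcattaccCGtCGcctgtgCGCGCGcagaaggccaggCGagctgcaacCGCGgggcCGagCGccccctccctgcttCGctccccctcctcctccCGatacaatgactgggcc

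The Epb4.1l2 window held 4 CG dinucleotides and the Frmd4b window 15, beside a median of 6 over 32851 RefSeq windows of the same length, with quartiles of 2 and 16. Over the 10 windows of the 8 hosts, all matched by symbol, the count ran from 2 for Utrn to 31 for Cd2ap. The TEAD motif GGAATG, searched on both strands, was in 1 of the 10 windows (Svep1) and in 12.6% of all windows. The AP-1 motif TGANTCA was in 1 (an inner Frmd4b window) and in 6.75% of all, and the CArG box of serum response factor was in 0 and in 1.47% of all. A letter match is not a binding site, and no match says only that the letters are not in the window.

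The Epb4.1l2 circRNA, mmu_circ_0002128, had 38, 35 and 52 counts in the UUO libraries, 12 and 15 in the AC libraries, and 1, 7 and 10 in the control libraries. The 3 groups did not overlap, and AC lay between UUO and control. Levels averaged 958 ± 137 CPM in UUO, 360.1 ± 109 CPM in AC and 122 ± 90.5 CPM in control. The level was 7.43-fold higher in UUO (log2 2.89, SE 0.51). In AC it was 2.78-fold that of control (1.48, SE 0.59), which did not pass the threshold.

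The Frmd4b circRNA, mmu_circ_0013632, had 0, 0 and 3 counts in the UUO libraries, 23 and 11 in the AC libraries, and 11, 45 and 26 in the control libraries. It was listed in every AC and control library and in 1 UUO library. Levels averaged 21.0 ± 36.4 CPM in UUO, 431 ± 156 CPM in AC and 559.8 ± 279 CPM in control. Summed over the groups, UUO held 3 counts and control 82, a level 25.5-fold lower in UUO (95% interval 8.44 to 126, counting error only). The fitted log2 fold change was -4.47 (SE 0.84) for UUO against control and -0.38 (SE 0.68) for AC against control. The fitted value depends on the 3 counts of UUO replicate 3, without which it was -7.61. Klhl3, the 1 distal nephron marker with listed circRNAs, summed over its 3 circRNAs to 355 to 677 CPM in UUO, 353 to 700.1 CPM in AC and 1985 to 2699 CPM in control. Of its 2 fitted circRNAs, 2 passed as lower in UUO and 1 in AC. Its part in the Frmd4b values was not tested.

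Utrn encodes utrophin, the relative of dystrophin that ties actin to the dystroglycan complex, and it hosted the most circRNAs of the 8 genes, 6 in all. Only mmu_circ_0000144 had enough counts to be fitted, with 36, 57 and 36 in the UUO libraries, 17 and 25 in the AC libraries, and 23, 28 and 41 in the control libraries. Means were 1000.2 ± 297 CPM in UUO, 565 ± 232 CPM in AC and 663 ± 166 CPM in control. UUO and AC both overlapped control, with log2 fold changes of 0.59 (SE 0.36) and -0.24 (SE 0.43). Of the 5 rare circRNAs, mmu_circ_0002025 had 0, 10 and 3 counts in UUO, 3 and 9 in AC and none in the 3 control libraries. A floor of 3 counts was set over the control group, and the UUO and AC counts were taken as exact, without counting error. On that basis its level was at least 4.64-fold higher in UUO and at least 7.24-fold higher in AC. However, 1 UUO library also held none. UUO replicate 2 held 10 of the 13 UUO counts and AC replicate 2 held 9 of the 12 AC counts. Without either, its group kept 3 counts, which is at the floor and gives no bound. The other 4 rare circRNAs of Utrn held at most 5 counts in any library. Summed over the 6, the Utrn log2 fold change was 0.57 (SE 0.37) in UUO and 0.017 (SE 0.43) in AC.

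Svep1 encodes a large secreted matrix protein that integrin α9β1 binds, the only matrix protein among the 8 hosts. Its circRNA, mmu_circ_0011707, had 38, 70 and 58 counts in the UUO libraries, 9 and 28 in the AC libraries, and 14, 23 and 20 in the control libraries. All UUO libraries lay above control, while the 2 AC libraries lay on either side of it. Levels averaged 1272 ± 338 CPM in UUO, 514 ± 428 CPM in AC and 407 ± 31.5 CPM in control. The level was 3.11-fold higher in UUO (log2 1.64, SE 0.42), and the log2 fold change in AC was 0.30 (SE 0.50). In AC the direction itself rested on replicate 2, without which the log2 value was -0.96. No fibroblast marker hosted a listed circRNA, so a share of fibroblasts could not be set beside these values.

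Ppp1r12a encodes MYPT1, the subunit that targets myosin phosphatase to myosin. It hosted 4 circRNAs, of which 2 were fitted. The more abundant, mmu_circ_0001932, had 20, 50 and 40 counts in the UUO libraries, 23 and 24 in the AC libraries, and 33, 40 and 49 in the control libraries. Means were 838 ± 330.04 CPM in UUO, 621 ± 112 CPM in AC and 882 ± 129 CPM in control. The log2 fold change was -0.068 (SE 0.35) in UUO and -0.51 (SE 0.41) in AC, and the AC libraries lay below all control libraries. The other, mmu_circ_0001930, switched between absent and present within each group, with 13, 20 and 0 counts in UUO, 16 and 0 in AC, and 9, 0 and 18 in control. Its standard errors, 1.20 and 1.38 on the log2 scale, were larger than its fold changes of 0.38 in UUO and -0.051 in AC. The rare mmu_circ_0001928 and mmu_circ_0001931 held at most 6 counts in any library. Summed over the 4, the Ppp1r12a log2 fold change was 0.019 (SE 0.34) in UUO and -0.29 (SE 0.39) in AC.

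**Figure D3:**
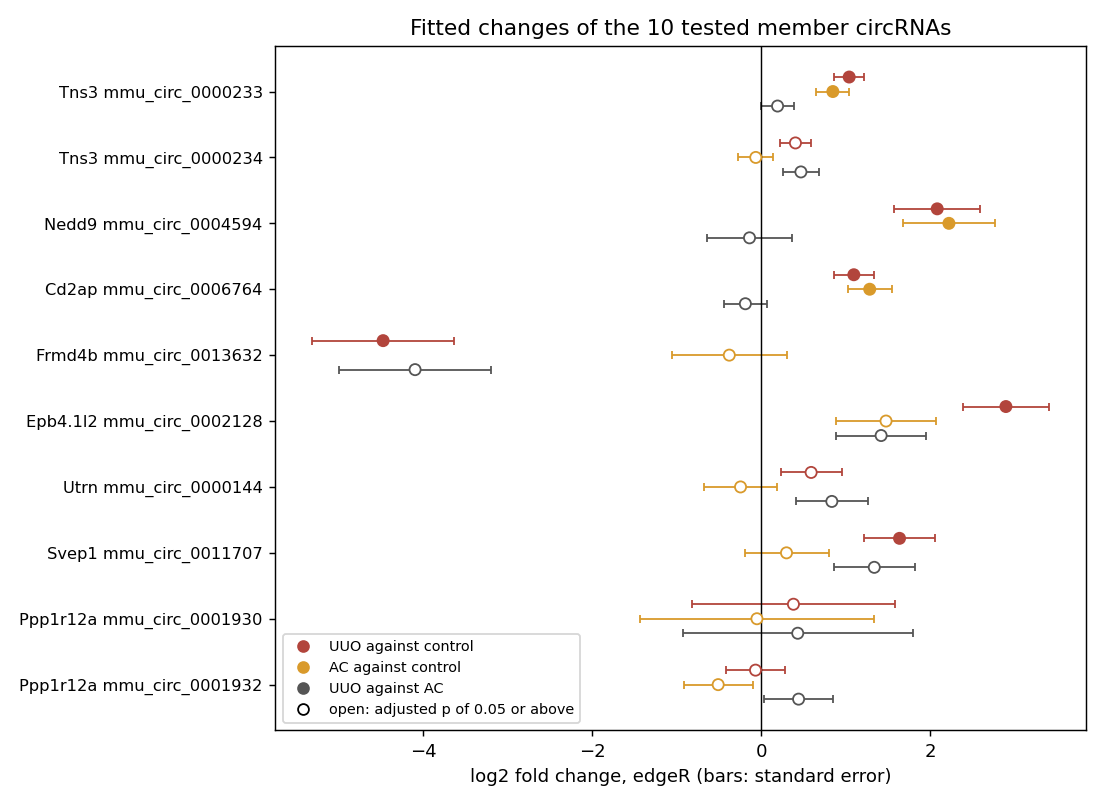
Log2 fold change of the 10 fitted circRNAs for UUO against control, AC against control and UUO against AC; points are edgeR estimates, filled where the adjusted p was under 0.05, and bars are 1 SE. In UUO against control, Epb4.1l2 lies highest at 2.89 and Frmd4b lowest at -4.47; Nedd9, Cd2ap and Tns3 mmu_circ_0000233 lie near 0 in UUO against AC.

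Counted together, 6 of the 10 fitted circRNAs passed an adjusted p of 0.05 for UUO against control, 5 higher and 1 lower, where 4.35% of all 1471 fitted circRNAs did, 2.86% higher and 1.50% lower. For AC against control 3 of the 10 passed, all higher, where 3.33% of all did, 1.90% higher and 1.43% lower. The choice of hosts used both comparisons, so nothing is read from these shares. Nearest the threshold in edgeR's quasi-likelihood fit for UUO against control were Svep1, inside at an adjusted p of 0.0361, and Tns3 mmu_circ_0000234, outside at 0.288. For AC against control they were Nedd9, inside at an adjusted p of 0.0326, and Epb4.1l2, outside at 0.244. The median log2 fold change of the 10 was 0.81 in UUO and 0.12 in AC, beside 0.016 and -0.015 over all fitted circRNAs. Groups did not overlap for 6 of the 10 in UUO against control and 5 of the 10 in AC against control, beside 24.3% and 30.7% of all. Of the host sums, 6 of 8 passed in UUO and 2 of 8 in AC (Nedd9 and Cd2ap), beside 6.50% and 3.46% of 1185 host sums, and 0 of 8 passed in UUO against AC, beside 0%.

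**Figure D4:**
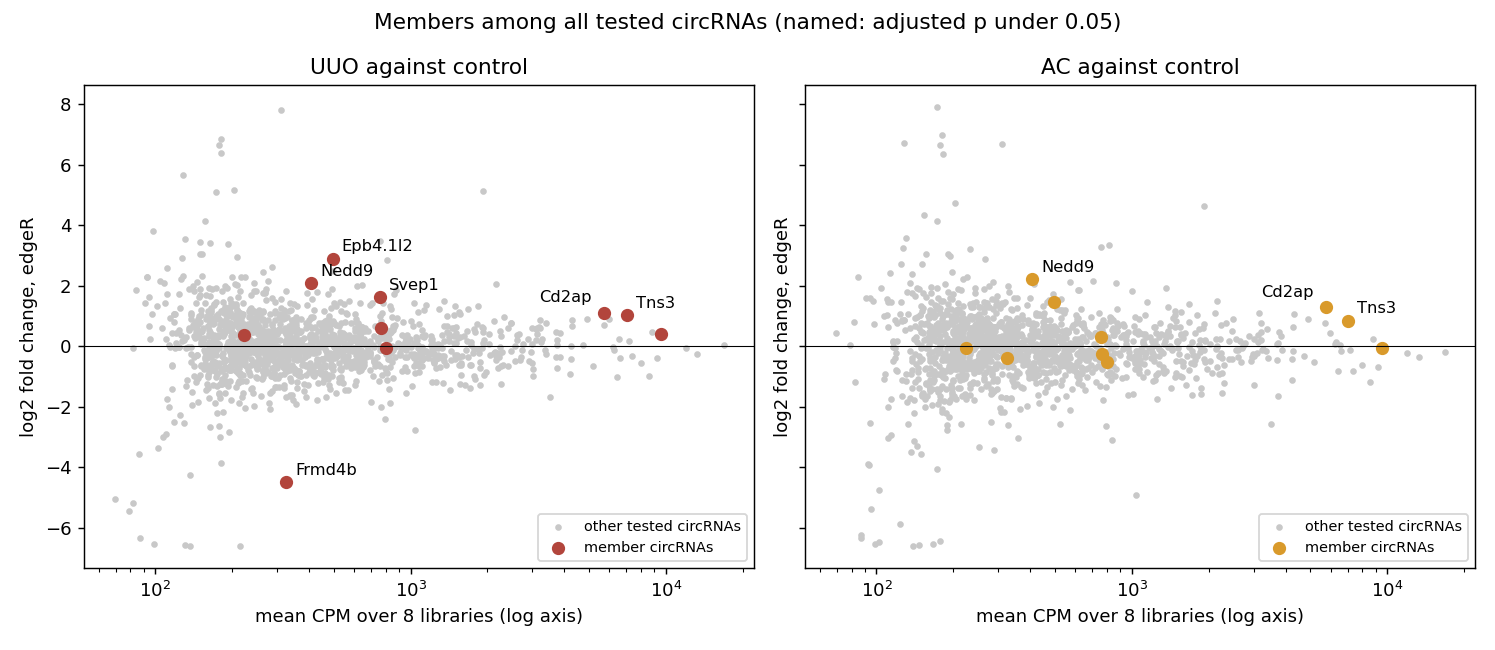
Log2 fold change against mean CPM, on a log axis, for the 1471 fitted circRNAs in UUO against control and in AC against control; grey points are other circRNAs, coloured points those of the 8 hosts, and names mark those past the threshold. Tns3 and Cd2ap lie among the most abundant circRNAs. Frmd4b and Epb4.1l2 lie at lower levels than these, with the largest changes of the 10 in UUO.

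Some of the values that passed rested on single libraries or on the tool. Because the hosts were selected on these values, passing again in a refit adds no support, and the refits show only where a value was lost. The higher level of Epb4.1l2 and of Tns3 mmu_circ_0000233 in UUO passed the threshold whichever of the 8 libraries was left out. The lower level of Frmd4b in UUO passed in 7 of the 8 cases and was lost without UUO replicate 2. Cd2ap passed in 5 cases in UUO, lost without UUO replicates 1 or 3 or control replicate 3, and in 5 cases in AC, lost without AC replicates 1 or 2 or control replicate 3. Nedd9 passed in 3 cases in UUO, lost without any of the UUO libraries or without control replicates 1 or 2, and in AC it passed in 1 case, without control replicate 3. Svep1 in UUO passed in 2 cases, those without an AC library, and Tns3 mmu_circ_0000233 in AC passed in 3 cases, lost without UUO replicate 3, either AC library, or control replicates 1 or 3. With limma-voom 4 of the 6 passed in UUO, where Frmd4b (adjusted p = 0.152) and Nedd9 (0.0990) were lost, and 2 of the 3 in AC, where Nedd9 (0.133) was lost. Scaling by the constants of the second deposited table shifted the median of all fitted circRNAs to -0.26 in UUO and -0.34 in AC on the log2 scale. Under that scaling all 9 passing values kept their sign, and 2 of them still passed, Epb4.1l2 (log2 2.59) and Frmd4b (-4.83) in UUO.

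The comparison of UUO with AC asks whether the injuries differ, and its fitted log2 fold change is the difference between those of UUO and of AC against control, on which the hosts were selected. It is therefore not independent of the choice of hosts, and nothing is read from the counts below. In edgeR's quasi-likelihood test 0 of the 10 circRNAs passed, as did 0 of all 1471 (0%). At an unadjusted p of 0.05 there were 4 of the 10, beside 5.57% (82) of all. Frmd4b was 19.2-fold lower in UUO than in AC by summed counts, 3 against 34 (95% interval 6.03 to 97.6, counting error only). Its fitted log2 fold change was -4.09 (SE 0.90), with an adjusted p of 0.158 in edgeR. DESeq2 gave Frmd4b an adjusted p of 0.0383, in a range over the alternatives from 0.00477 without the low-count filter to 0.998 with the replicate block. DESeq2 passed 2 of all 1471 and limma-voom 0. Epb4.1l2 was 2.67-fold that of AC in UUO (log2 1.42, SE 0.53) and Svep1 2.53-fold (1.34, SE 0.48), each with an adjusted p of 0.816 in edgeR. In Frmd4b, Epb4.1l2 and Svep1 no UUO library overlapped an AC library, nor in Nedd9 and Utrn mmu_circ_0000144. These 5 of 10 stand beside 24.3% of all. For the circRNAs that passed in both UUO and AC against control, the log2 fold change of UUO against AC was 0.19 (SE 0.19) for Tns3 mmu_circ_0000233, -0.14 (SE 0.50) for Nedd9 and -0.19 (SE 0.26) for Cd2ap. For Tns3 mmu_circ_0000234 it was 0.47 (SE 0.21), with an adjusted p of 0.836 in edgeR. Epb4.1l2, Svep1 and Frmd4b passed against control in UUO and not in AC. Their direct comparison did not pass in the standard edgeR fit, so that fit showed no difference between the injuries for them. For Frmd4b this depended on the setting, as it passed with DESeq2 and without the low-count filter.

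The profiles most like those of the 8 hosts were found as the smallest root mean square (RMS) difference of log2(CPM + 50) centred over the 8 libraries. CircRNAs of the 8 hosts themselves and those without a host name were left out of the search. The same circRNA, mmu_circ_0010364 of Vav3, was nearest to both Nedd9 (RMS 0.28) and Epb4.1l2 (RMS 0.60). It had 35, 32 and 49 counts in UUO, 35 and 27 in AC, and 6, 12 and 13 in control. Nearest to Cd2ap was a circRNA of Nfkb1, a subunit of the NF-κB transcription factor (0.24), with 60, 68 and 79 counts in UUO, 80 and 71 in AC, and 24, 47 and 41 in control. Nearest to Svep1 was a circRNA of Rftn1, a lipid raft protein (0.30), with 30, 49 and 72 counts in UUO, 7 and 26 in AC, and 7, 17 and 15 in control. Nearest to Frmd4b was a circRNA of Spast, the microtubule-severing enzyme spastin (0.58), which like Frmd4b was near absent in UUO, with 0 counts in all 3 libraries against 21 and 14 in AC and 4, 27 and 10 in control. The nearest to Tns3 mmu_circ_0000234 came from Lrp6, a Wnt co-receptor (0.18), that to Utrn mmu_circ_0000144 from S100pbp (0.22) and that to Ppp1r12a mmu_circ_0001932 from Vps45, a protein of vesicle traffic (0.22). The median RMS to all fitted circRNAs of other named hosts ran from 0.66 for Tns3 to 1.66 for Frmd4b.

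Other genes of the same machinery, from lists of 320 symbols without the 8 hosts, gave 231 listed circRNAs of 92 hosts, of which 41 of 31 hosts were fitted. In UUO against control 1 of the 41 rose and 0 fell, beside 2.86% and 1.50% of all fitted circRNAs in edgeR. In AC against control 2 rose and 0 fell, beside 1.90% and 1.43% of all. All were circRNAs of FERM-domain tyrosine phosphatases, where 13 circRNAs of 9 hosts of the FERM and band 4.1 list were fitted. Ptpn14 mmu_circ_0000130 had 44, 98 and 67 counts in UUO, 90 and 76 in AC, and 29, 32 and 16 in control, and rose 2.84-fold in UUO (log2 1.51, SE 0.35) and 3.84-fold in AC (log2 1.94, SE 0.38). Ptpn13 mmu_circ_0001372 had 13, 24 and 48 counts in UUO, 44 and 33 in AC, and 10, 9 and 12 in control, and rose 4.39-fold in AC (log2 2.13, SE 0.48). Of the lists for focal adhesions (3 fitted), the slit diaphragm (5), the dystrophin complex and membrane skeleton (10), myosin phosphatase and actomyosin (5) and actin assembly (5), 0 circRNAs passed in either comparison. The matrix list had 6 listed circRNAs and 0 fitted. The median of the 41 was 0.20 in UUO and 0.17 in AC, and for UUO against AC it was -0.094, with 0 of the 41 passing.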

How the data were processed

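Per the file headers, the first deposited table holds counts per circRNA and library, named by circBase identifiers with a source transcript and host gene. The second holds a signal, which the values show to be each count divided by 1 constant per library (8718 to 11941, 100% whole within 0.01 when multiplied back), deposited with no stated meaning. The tools HISAT2 and StringTie and the build mm9 are named in the submitters' processing notes without role or version. The sources used here do not name the caller of circular junctions, its read minimum or the annotation, and linear transcripts were not analysed here. Counts were fitted as deposited with the edgeR 4.0.16 quasi-likelihood test (R 4.3.3), all 8 libraries in 1 fit of 3 groups, TMM factors, filterByExpr (minimum count 10, total 15) and Benjamini-Hochberg adjustment over all 1471 fitted circRNAs at 0.05, and again on counts summed per host. The biological coefficient of variation was 0.413. The 1471 held 82.5% to 84.8% of each library's counts, and depth of 40865 to 65145 counts per library limits rare circRNAs. The standard error is the size of the log2 fold change divided by the root of its F statistic. DESeq2 1.42.0, limma 3.58.1 (voom), other scalings, filters, a replicate block and leaving out each library were alternatives. Ratios of summed counts have exact 95% intervals, which cover counting error only and not the spread between libraries. Members, lists and tests were chosen with earlier results of these data known. Named singly were circRNAs passing in any comparison and the most abundant of each host. From the pathway lists, those passing were named. The remaining circRNAs of the hosts were given by counts, with fitted values for Ppp1r12a mmu_circ_0001930 and a fold bound for Utrn mmu_circ_0002025. The fit was tested on simulated data. Promoters came from RefSeq GRCm38.p6; coordinates of the circRNAs are not printed.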

Additional observations from a re-analysis of the deposited data

How the results depend on the processing

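Epb4.1l2 in UUO passed under each of the 9 other settings and each left-out library. The number of circRNAs of the 8 hosts passing in UUO against control was 6 and became 2 with the deposited constants as library sizes, 2 with the replicate block, and 3 to 6 with 1 library left out. In AC against control it was 3 and became 0 with the constants, 0 with the block, 0 with only the 2 groups compared in the fit, and 0 to 2 with 1 library left out. In UUO against AC it was 0 and became 1 with DESeq2 and 1 without the low-count filter. For host sums, UUO against control went to 2 under the constants (6 in the standard fit, 6 with the block) and 3 to 6 with 1 library left out. AC against control, with 2 host sums passing, gave 1 with DESeq2, 1 with voom, 1 with only the 2 groups, 0 with the constants, 0 with the block and 0 to 2 with 1 library left out. UUO against AC host sums gave 1 without the filter. The cause of these moves was not tested.

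Over the whole table, 64 circRNAs passed in UUO against control, 103 with DESeq2, 37 with the constants (11 higher, 26 lower, beside 42 higher and 22 lower), 12 with the block and 10 to 75 with 1 library left out. In AC against control 49 passed, 29 with the constants (7 higher, 22 lower, beside 28 and 21), 5 with the block, 14 with only the 2 groups and 11 to 38 with 1 library left out. In UUO against AC 0 passed, 2 with DESeq2, 4 without the filter, 1 with only the 2 groups and 0 to 1 with 1 library left out. No pairing by replicate number was seen. Deviations of same-numbered libraries correlated at -0.108, -0.068 and -0.051 between UUO and control. Between AC and control the values were -0.090 and -0.113, and between UUO and AC 0.041 and 0.035. Of the UUO libraries, 0 of 3 correlated best with the control of its own number. With so few libraries these values cannot exclude a pairing.

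Signs turned only in values that had not passed, most of them with 1 library left out, where the log2 ranges were as follows. For Ppp1r12a mmu_circ_0001930 the range was -0.31 to 1.16 in UUO against control, -6.17 to 0.87 in AC against control and -0.50 to 6.50 in UUO against AC. It was -0.36 to 0.19 for Ppp1r12a mmu_circ_0001932 in UUO against control. In AC against control it was -0.28 to 0.059 for Tns3 mmu_circ_0000234, -0.86 to 0.057 for Frmd4b, -0.75 to 0.093 for Utrn mmu_circ_0000144, -0.96 to 0.95 for Svep1 and -0.73 to 0.52 for the Utrn host sum. The Ppp1r12a host sum ranged over -0.34 to 0.27 in UUO against control and -0.047 to 0.60 in UUO against AC. Under other settings in AC against control, Ppp1r12a mmu_circ_0001930 was 0.15 with voom and 0.012 without TMM, and Tns3 mmu_circ_0000234 was 0.026 with the stricter filter. Svep1 was -0.051 with voom and -0.070 with the constants, the Tns3 host sum was -0.052 with the constants, and the Utrn host sum was -0.075 with voom, -0.26 with the constants and -0.11 with the block. In UUO against control the Ppp1r12a host sum was -0.16 with the constants.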
